A study of Mus musculus with 6 samples.

Results

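The core circadian clock loop was followed through 10 genes, Arntl, Clock and Npas2 as activators and Per1, Per2, Per3, Cry1, Cry2, Nr1d1 and Nr1d2 as repressors, in colonic mucosa with and without Tlr2. The genes were chosen by their known place in the loop, but with earlier results of these data known. They were matched through the transcript accession of each array probe. They had 17 probes among the 25097, of 41174 on the array, that could be given a gene symbol in this way. All 17 were among the 30677 probes that passed the filter on dim spots, and the 10 genes were among 14689 genes with a symbol and such a probe.

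The tested mice were Tlr2 knockout C57BL/6 mice and their controls were wild-type C57BL/6 mice, all at 90 postnatal days, and the tissue was mucosa scraped from the colon. A knockout and a wild-type sample shared each of the 4 two-colour arrays, and these pairs are numbered 1, 2, 4 and 5 after the knockout sample. The knockout sample carried the dye Cy3 in pairs 1 and 2 and Cy5 in pairs 4 and 5, and each ratio below is knockout over wild type on a log2 scale. No source used here gives the knockout allele, the sex, the litter or the hour of tissue collection, and no label says outright that each sample is a separate animal, so p-values measure the spread between these samples.

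In the mouse clock, BMAL1, which Arntl encodes, pairs with CLOCK or its relative NPAS2 and switches on genes through E-boxes, among them the Per, Cry and Nr1d genes. PER and CRY proteins return to the nucleus and restrain this pair, and the nuclear receptors NR1D1 and NR1D2 (REV-ERB alpha and beta) repress Arntl through ROR elements. Transcripts of the loop therefore rise and fall each day, with Arntl and the Per and Nr1d genes at different hours, and the gut epithelium is one of the peripheral tissues with such a clock. In bulk mucosa, fewer cells that express a gene and less transcript per cell cannot be told apart.

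Tlr2 itself was lower in every pair, with log2 ratios of -4.42, -5.31, -5.50 and -4.20, which matches the genotype labels. Between 67.7% and 71.9% of spots were well above background in the knockout channel and between 63.3% and 76.5% in the wild-type channel. Pair 1 stood apart from the rest: over 14678 genes, its ratios correlated at -0.21, -0.42 and -0.11 with pairs 2, 4 and 5, whereas those pairs correlated with one another at 0.42 to 0.57. Of 9 epithelial markers, 8 were measured and well above background in both channels of every array, and 4 of these were saturated on all 4 arrays.

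The promoters of 9 of the 10 genes were found in the RefSeq table of build GRCm38.p6, each as 300 bases from 250 before to 50 after a start site. They are shown on the strand of the gene for 4 genes because they hold the elements through which the loop is known to run. Capitals mark an E-box (CACGTG) or its variant CACGTT, a D-box (TTANGTAA) or a ROR element core (TAGGTCA or TAGGTTA), each searched on both strands, so that the variant also appears as AACGTG. In Per1 an E-box lies at bases 85 to 90 of the window. In Cry1 the variant lies at bases 172 to 177 and an E-box at 191 to 196. Per3 holds 2 D-boxes, and Arntl holds both ROR cores, at bases 245 to 251 and 281 to 287.
Per1, chr11:69098699-69098998, plus strand: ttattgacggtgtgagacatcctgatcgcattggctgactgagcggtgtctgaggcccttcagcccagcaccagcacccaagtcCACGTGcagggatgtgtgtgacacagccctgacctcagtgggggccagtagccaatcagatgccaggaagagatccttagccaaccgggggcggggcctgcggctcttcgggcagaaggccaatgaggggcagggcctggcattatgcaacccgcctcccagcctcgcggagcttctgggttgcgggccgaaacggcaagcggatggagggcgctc
Cry1, chr10:85185005-85185304, minus strand: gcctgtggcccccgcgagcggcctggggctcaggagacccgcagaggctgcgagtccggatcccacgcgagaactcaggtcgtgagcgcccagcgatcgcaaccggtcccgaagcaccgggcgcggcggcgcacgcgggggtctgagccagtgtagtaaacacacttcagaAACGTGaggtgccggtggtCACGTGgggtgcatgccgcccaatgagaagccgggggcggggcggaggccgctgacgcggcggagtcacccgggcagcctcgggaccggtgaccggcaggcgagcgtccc
Per3, chr4:151044616-151044915, minus strand: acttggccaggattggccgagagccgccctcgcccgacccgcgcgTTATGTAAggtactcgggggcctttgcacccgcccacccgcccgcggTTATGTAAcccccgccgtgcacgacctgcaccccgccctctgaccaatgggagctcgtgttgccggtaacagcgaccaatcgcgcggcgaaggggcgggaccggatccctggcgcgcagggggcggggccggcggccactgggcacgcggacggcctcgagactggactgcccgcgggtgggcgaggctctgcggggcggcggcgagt
Arntl, chr7:113207261-113207560, plus strand: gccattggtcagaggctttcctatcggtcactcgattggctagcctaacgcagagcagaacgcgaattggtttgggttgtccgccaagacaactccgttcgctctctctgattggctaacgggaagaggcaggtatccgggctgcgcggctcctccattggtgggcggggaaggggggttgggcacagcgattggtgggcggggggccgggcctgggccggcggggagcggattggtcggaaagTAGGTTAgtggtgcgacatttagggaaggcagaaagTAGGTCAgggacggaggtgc

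Over all 13 windows of the clock genes, 2 held CACGTG, 3 held CACGTT (Cry1, Cry2 and Nr1d1) and 1 held TTANGTAA. Of 32851 promoter windows of the same length, 7.15% held CACGTG, 4.68% held CACGTT, 2.32% held TTANGTAA, 2.61% held TAGGTCA and 1.44% held TAGGTTA. The ROR core with G (TGGGTCA) and the cyclic AMP element (TGACGTCA) were in 0 clock windows and in 3.98% and 1.79% of all windows. These matches describe letters only. Windows of 300 bases do not cover distal elements.

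Among the activators, Arntl was lower in the knockout sample of every pair. Its level was 9.42, 10.09, 10.49 and 10.18 in the knockout samples of pairs 1, 2, 4 and 5, against 11.64, 10.71, 10.66 and 11.11 in the wild-type samples (log2 normalised intensity). The highest knockout sample, that of pair 4, was below the lowest wild-type sample, so the groups did not overlap. The ratios were -2.22, -0.62, -0.17 and -0.93, with a mean of -0.98 ± 0.882 (SD, n = 4), a 1.98-fold lower level, and limma gave an adjusted p of 0.783. Pair 1 held both the lowest knockout and the highest wild-type level, and without it the mean ratio was -0.57 ± 0.382 (SD, n = 3). With median centring in place of loess the ratio of pair 4 was 0.54, or 0.16 relative to the median of all genes on that array, so the direction of Arntl in pair 4 depends on the scaling.

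Npas2, which can stand in for CLOCK as the partner of BMAL1, was lower in 3 of 4 pairs. Its level was 7.54, 7.80, 8.17 and 8.05 in the knockout samples, against 8.96, 8.16, 8.25 and 7.94 in the wild-type samples, and the groups overlapped. The ratios were -1.42, -0.36, -0.08 and 0.12, with a mean of -0.44 ± 0.685 (SD, n = 4) and a limma adjusted p of 0.819. Pair 1 carried most of this difference, and without it the mean was -0.11 ± 0.239 (SD, n = 3).

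Clock, whose protein is the usual partner of BMAL1, showed no shared direction. On its brightest probe the level was 11.12, 11.51, 11.56 and 11.29 in the knockout samples, against 11.50, 11.20, 11.18 and 11.36 in the wild-type samples, and the groups overlapped. The ratio was negative in pairs 1 and 5 and positive in pairs 2 and 4, and averaged 0.06 ± 0.357 (SD, n = 4). The other probes of Clock averaged 0.01 ± 0.523 and 0.04 ± 0.0952.

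**Figure D1:**
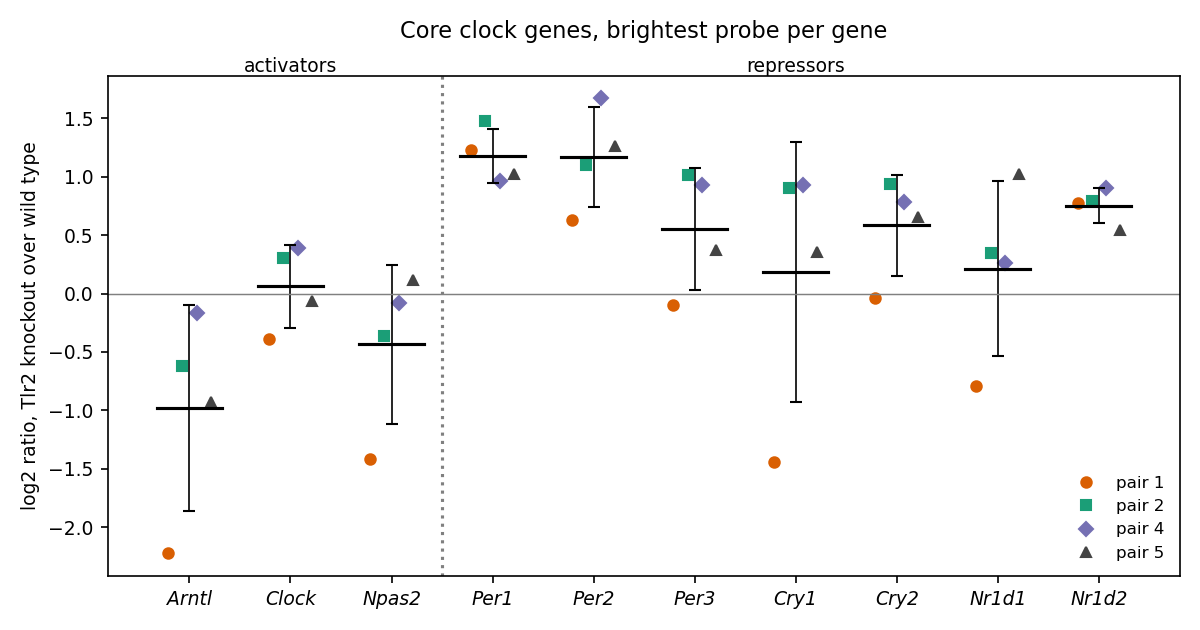
Log2 ratio of Tlr2 knockout over wild type for the 10 core clock genes on the brightest probe of each, with 1 symbol per pair, a bar for the mean and whiskers for the SD (n = 4). Per1, Per2 and Nr1d2 lie above 0 in all 4 pairs and Arntl below 0 in all 4, while pair 1 is the lowest point for Arntl, Clock, Npas2, Per2, Per3, Cry1, Cry2 and Nr1d1.

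Among the repressors, Per1, Per2 and Nr1d2 were higher in the knockout sample of every pair. Per1, a light- and hormone-responsive member of the PER family, had levels of 11.40, 11.05, 11.57 and 11.13 in the knockout samples, against 10.17, 9.58, 10.61 and 10.10 in the wild-type samples. Every knockout sample was above every wild-type sample. The ratios were 1.23, 1.48, 0.97 and 1.02, each over 1.6-fold, with a mean of 1.17 ± 0.231 (SD, n = 4), a 2.26-fold higher level. The standard error in limma was 0.0902 and the unadjusted p was 0.000264, but after Benjamini-Hochberg adjustment over all 30677 probes it was 0.773. Of all probes, 17 or 0.0554% were at least 1.6-fold higher on all 4 arrays, and 0.0326% were as much lower.

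Per2, the PER protein with the strongest role in mouse rhythm, had levels of 9.54, 9.51, 10.52 and 9.95 on its brighter probe in the knockout samples, against 8.90, 8.42, 8.85 and 8.69 in the wild-type samples. Here too the groups did not overlap. The ratios were 0.63, 1.10, 1.67 and 1.27, with a mean of 1.17 ± 0.429 (SD, n = 4), a 2.25-fold higher level, and a limma adjusted p of 0.773.

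Nr1d2, which encodes REV-ERB beta, had levels of 11.67, 11.44, 11.59 and 11.55 in the knockout samples, against 10.90, 10.64, 10.69 and 11.01 in the wild-type samples. The groups did not overlap, and the spread among the knockout samples was 0.0963 (SD, n = 4). The ratios were 0.77, 0.79, 0.91 and 0.54, with a mean of 0.75 ± 0.152 (SD, n = 4), a 1.69-fold higher level, and a limma adjusted p of 0.773. With median centring in place of loess, the pair 1 ratios of Per2 and Nr1d2 were -0.20 and -0.22. The median of all genes on that array was then -0.64, and relative to it both were positive, at 0.43 and 0.41.

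Per3, Cry1, Cry2 and Nr1d1 were higher in the knockout samples of pairs 2, 4 and 5 and lower in that of pair 1. Cry2, a cryptochrome that binds and silences the activator pair, had levels of 10.12, 10.29, 10.89 and 10.51 in the knockout samples, against 10.16, 9.35, 10.10 and 9.86 in the wild-type samples. The groups overlapped only through pair 1, where the ratio was -0.04, against 0.94, 0.79 and 0.65 in the others. The mean was 0.58 ± 0.432 (SD, n = 4), with a limma adjusted p of 0.783.

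Per3, a PER family member that mouse rhythm can do without, had levels of 7.04, 7.80, 8.01 and 7.41 in the knockout samples, against 7.14, 6.79, 7.08 and 7.03 in the wild-type samples. Only the knockout sample of pair 1 lay within the wild-type range. The ratios were -0.10, 1.01, 0.93 and 0.37, with a mean of 0.56 ± 0.52 (SD, n = 4), and the probe was dim, at 1.90 to 5.17 times its local background.

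Cry1, the other cryptochrome, differed most between the pairs. Its level on the brighter probe was 7.05, 7.77, 8.32 and 8.16 in the knockout samples, against 8.49, 6.87, 7.39 and 7.81 in the wild-type samples. Pair 1 held the lowest knockout and the highest wild-type level, as for Arntl and Npas2. The ratio was -1.44 there and 0.90, 0.93 and 0.35 in pairs 2, 4 and 5, so that the mean was 0.19 ± 1.11 (SD, n = 4) over all pairs and 0.73 ± 0.323 (SD, n = 3) without pair 1.

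Nr1d1, which encodes REV-ERB alpha, had levels of 11.41, 11.82, 11.88 and 12.04 in the knockout samples, against 12.20, 11.48, 11.62 and 11.01 in the wild-type samples. The ratios were -0.79, 0.34, 0.26 and 1.02. The mean was 0.21 ± 0.75 (SD, n = 4), against 0.54 ± 0.418 (SD, n = 3) without pair 1, and the limma adjusted p over 4 arrays was 0.97. Its paralog Nr1d2 was thus higher in the knockout sample of pair 1, where Nr1d1 was lower.

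**Figure D2:**
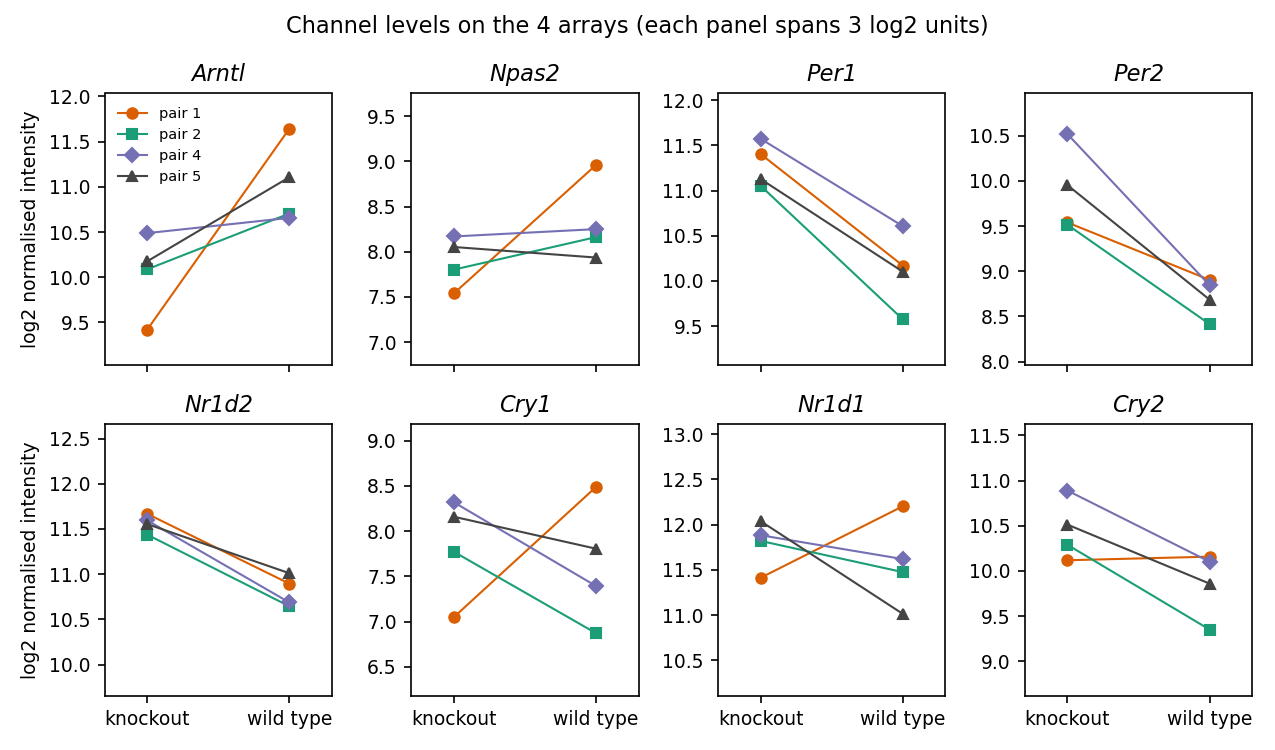
Log2 normalised intensity of 8 clock genes in the knockout sample (left) and the wild-type sample (right) of each array, joined within a pair. Lines fall from left to right in all 4 pairs for Per1, Per2 and Nr1d2 and climb in all 4 for Arntl, whereas pair 1 runs against the other pairs for Cry1 and Nr1d1. Heights cannot be compared between panels, since each is 1 probe.

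The submitters called a transcript changed where 2 or more arrays passed 1.6-fold and no array went the other way. By this rule 3 clock probes were higher in the knockout, those of Per1, Per2 and Nr1d2, and 1 was lower, that of Arntl. The background was 0.59% of all probes higher and 0.535% lower. The same 4 probes were those with 1 direction on all 4 arrays, against 6.52% of all probes higher and 7.54% lower, and those whose knockout and wild-type levels did not overlap, against 1.87% and 2.23%. In limma, 0 clock probes passed in either direction at an adjusted p under 0.05, as did 0 (0%) of all probes, Tlr2 included at an adjusted p of 0.773. At an unadjusted p under 0.05, 4 clock probes were higher (Per1, Per2, Nr1d2 and Cry2) and 1 lower (Arntl), where 2.93% of all probes were higher and 3.34% lower.

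Without pair 1 the rule gave 6 clock probes higher, adding Per3, Cry1 and Cry2, and 0 lower, where 2.66% of all probes were higher and 3.22% lower. On those 3 arrays 11 clock probes were higher throughout and 1 lower, against 24.5% of all probes higher and 23.9% lower. The median of the 17 probe means was 0.07, against 0.0012 for all probes. In the authors' deposited table of increased transcripts, 3 of the 328 entries were clock loop genes, with average linear ratios of 2.38 for Per1, 2.56 for Per2 and 1.82 for Nr1d2. In the authors' deposited table of decreased transcripts, 1 of 277 entries was, with an average of 0.595 for Arntl. These tables come from the same 4 arrays, so they are not independent of the values above.

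The 2 arms of the loop were then set against each other on each array, as the mean ratio of the 7 repressors minus that of the 3 activators, with the brightest probe of each gene. The difference was 1.38, 1.16, 0.88 and 1.04 for pairs 1, 2, 4 and 5, a mean of 1.11 ± 0.213 (SD, n = 4). It was positive in 4 of 4 pairs. Its SD was below that of the repressor mean (0.424) and of the activator mean (0.611) over 4 pairs, but without pair 1 it was 0.143, against 0.105 for the repressor mean and 0.178 for the activator mean (n = 3). The repressor mean was 0.04, 0.94, 0.92 and 0.75, and the activator mean was -1.34, -0.22, 0.05 and -0.29. In pair 1 the repressor mean near 0 covered members from -1.44 (Cry1) to 1.23 (Per1), and all 3 activators were below 0. In pairs 2, 4 and 5 all 7 repressors were above 0 and the activator mean was nearer 0.

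Within the arms, 3 of 7 repressors and 0 of 3 activators were above 0 in pair 1, and 7 of 7 repressors and 1 of 3 activators in each of the other pairs. The activator above 0 was Clock in pairs 2 and 4 and Npas2 in pair 5. The difference between the arms stayed positive on every array with Agilent's processed signals (mean 1.47), with median centring (1.13), without background correction (1.14), with a normexp offset of 16 (1.20) and with the mean of all probes of a gene (0.97). It has no p-value, because the members were chosen with earlier results known.

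**Figure D3:**
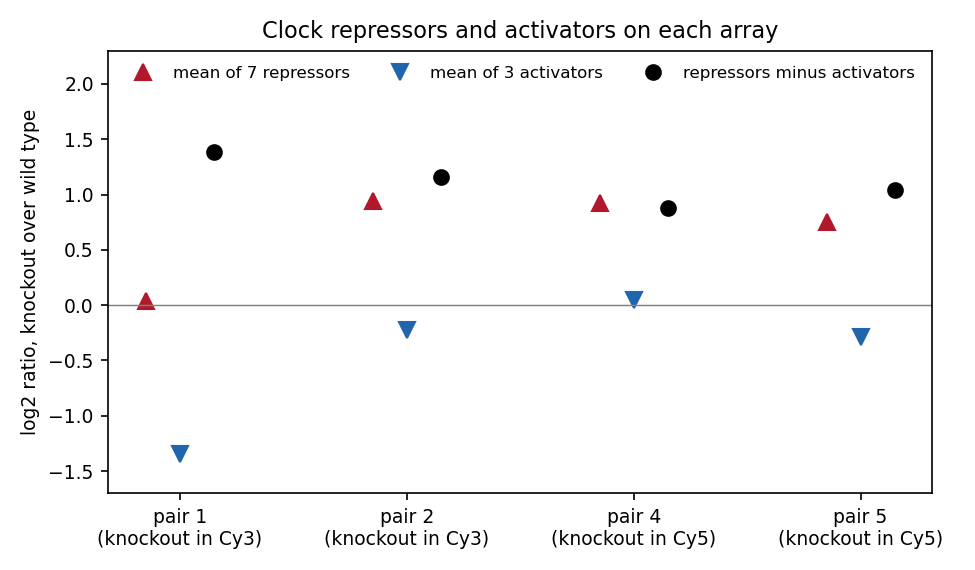
Mean log2 ratio of knockout over wild type of the 7 repressors (red), the 3 activators (blue) and their difference (black) on each array, labelled with the dye of the knockout sample. The difference lies between 0.88 and 1.38 on all 4 arrays, although both arms are lowest in pair 1.

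Means over the pairs of each dye orientation lay close together for some members and apart for others. Per1 averaged 1.35 with the knockout in Cy3 (pairs 1 and 2) and 1.00 with it in Cy5 (pairs 4 and 5), Nr1d2 averaged 0.78 and 0.73, and Per2 0.87 and 1.47. Arntl averaged -1.42 in the Cy3 pairs and -0.55 in the Cy5 pairs. Cry1 and Nr1d1 differed in sign, at -0.27 and -0.22 in the Cy3 pairs and 0.64 and 0.64 in the Cy5 pairs. So did Npas2, at -0.89 and 0.018, and Clock, at -0.039 and 0.16. Each orientation has 2 arrays and pair 1 is among the Cy3 pairs, so a dye effect and the pairs' own differences cannot be told apart for these genes.

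Of the 5 genes with more than 1 probe, Per2 had the probes that differed most. Its dimmer probe (A_52_P536869) gave ratios of 0.02, -0.20, -0.05 and 0.05 and a mean of -0.04 ± 0.115 (SD, n = 4), against 1.17 for the brighter one (A_51_P282760). Both carry the same transcript accession, NM_011066. The dimmer probe read 2.04 to 2.71 times its local background over all channels and the brighter one 5.76 to 25.4 times. The probes' sequences and places in the transcript were not used here, and the part of brightness in this difference was not tested.

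The same order held within Cry2, where the bright probe averaged 0.58 and the dim one, at 1.44 to 2.32 times background, 0.07 ± 0.184 (SD, n = 4). In Nr1d1 the 3 probes averaged 0.21, 0.03 and -0.05, from brightest to dimmest, and the brightest reached 106 times background. In Cry1 both probes had the same sign in each pair, with -0.67 in pair 1 and 0.44, 0.44 and 0.09 in the others for the dimmer one. In Clock the probe means lay close together, but the probes differed in size and sign within pairs. The dimmest was at 0.12 and -0.09 in pairs 1 and 2. There the brightest was at -0.39 and 0.31 and the middle one at -0.74 and 0.37. All 17 probes were well above background in both channels of all 4 arrays and 0 were saturated. The 5 whose highest reading was under 4 times background averaged between -0.05 and 0.07. Brighter probes of Clock, at 0.06 and 0.01, and of Nr1d1, at 0.03, lay in the same range.

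**Figure D4:**
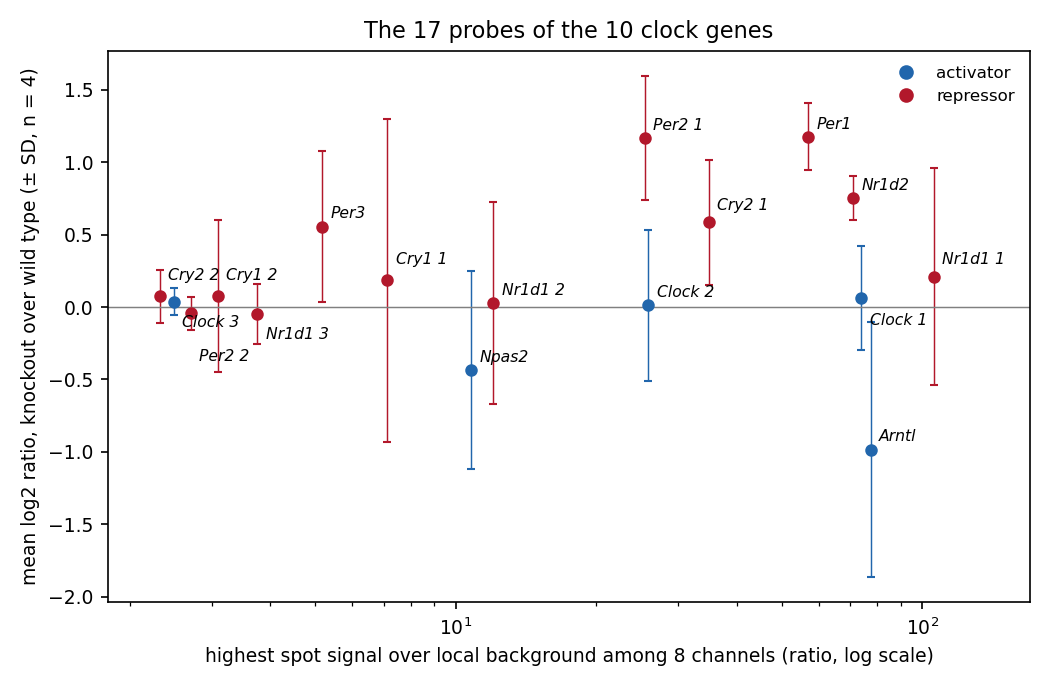
Mean log2 ratio of knockout over wild type (± SD, n = 4) of the 17 clock probes against the highest ratio of spot signal to local background among the 8 channels, on a log axis. Probes of 1 gene are numbered from the brightest. Those at the left, near background, lie close to 0, including the dim probes of Per2 and Cry2, as do brighter probes of Clock and Nr1d1.

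Further genes of the clock were taken from a list of 21 output factors, kinases and degradation factors, of which 19 were measured. By the submitters' rule 4 were higher in the knockout (0.742% of all named genes) and 1 lower (0.701%), and 0 passed limma in either direction, as for all genes (0%), while 5 were higher and 1 lower at an unadjusted p under 0.05, where 3.7% and 4.17% of all named genes were. Ciart, a repressor of the BMAL1 and CLOCK pair, had ratios of 2.24, 1.36, 1.23 and 1.04. Dbp and Tef, factors that act through D-boxes and are driven by the core loop, averaged 1.05 ± 0.372 and 0.95 ± 0.451 (SD, n = 4), and Usp2, a clock-controlled deubiquitinase, 0.89 ± 0.456. These 4 genes were positive in all 4 pairs, pair 1 included, as 7.12% of all named genes were, and 8.41% were negative in all 4.

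Nfil3, which represses through the same D-boxes, was the lower one, at -0.97, -2.08, -0.90 and -0.83. The median over the 19 genes was 0.18, against -0.0085 for all named genes. Without pair 1 the rule gave 4 higher and 3 lower, with Bhlhe40 in place of Usp2 among the higher and Timeless and Csnk1e beside Nfil3, where 2.62% of all named genes were higher and 3.36% lower. Rora, whose protein activates Arntl through the ROR elements, averaged 0.0053 ± 0.111.

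**Figure D5:**
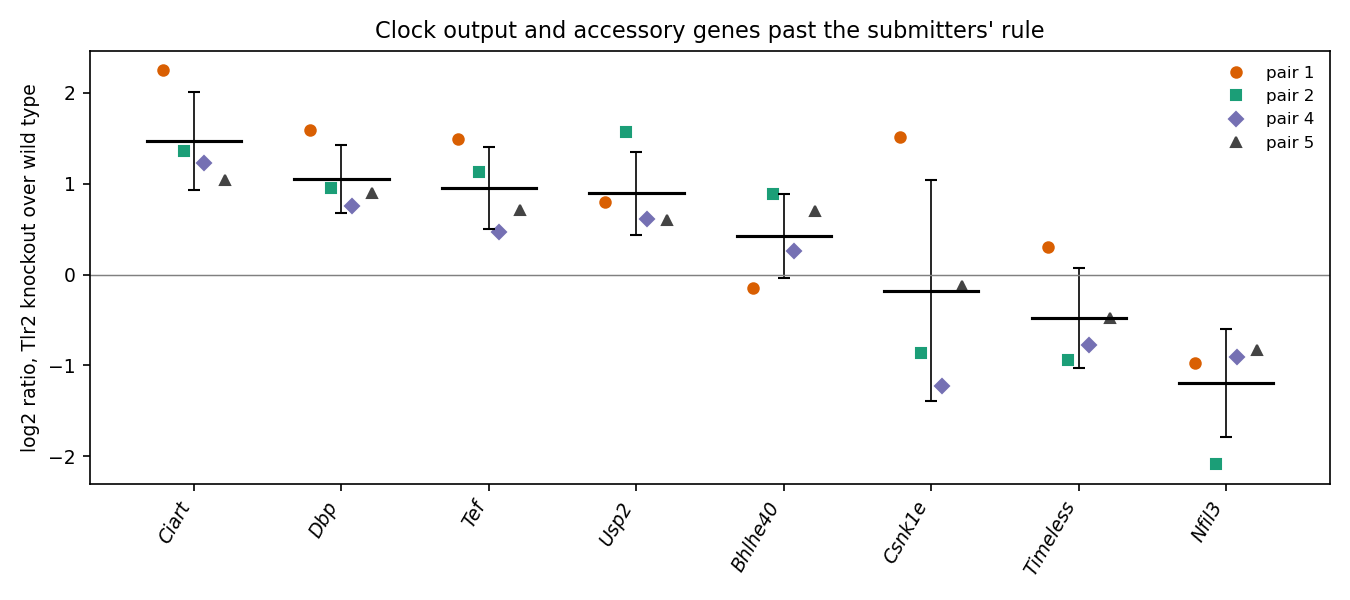
Log2 ratio of knockout over wild type for the 8 clock output and accessory genes that passed the submitters' rule over all pairs or without pair 1, with 1 symbol per pair, a bar for the mean and whiskers for the SD (n = 4), ordered by mean. Ciart, Dbp, Tef and Usp2 lie above 0 in every pair and Nfil3 below 0 in every pair, while Csnk1e ranges from 1.51 in pair 1 to -1.23 in pair 4.

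Per genes also respond to glucocorticoids and to signals that induce immediate-early genes, and both groups were read beside them. Of 9 glucocorticoid-responsive genes measured, 1 was higher by the rule (Errfi1, 0.59 ± 0.451, SD, n = 4) and 0 were lower, where 0.742% and 0.701% of all named genes were. Without pair 1 the rule gave 3 higher (Errfi1, Dusp1 and Sgk1) and 1 lower (Mt2), where 2.62% and 3.36% of all named genes were. The list medians were -0.50, 0.30, 0.03 and 0.30 for pairs 1, 2, 4 and 5. Mt2 averaged -1.41 ± 1.63, Dusp1 0.71 ± 0.791 and Hsd11b2 -0.64 ± 0.953, and Fkbp5, a common readout of the receptor, 0.01 ± 0.849 (SD, n = 4). Of 10 immediate-early genes, 0 passed the rule in either direction, with medians of 0.17, -0.13, 0.16 and 0.50. Atf3 averaged 0.50 ± 0.85, Junb 0.44 ± 0.196 and Ier2 0.31 ± 0.131 (SD, n = 4), the last 2 positive in all 4 pairs.

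Genes outside the loop with the pattern nearest to that of Per1, by the root mean square difference of the 4 ratios, were Rsad2 (0.201), Ifit2 (0.208), Slfn4 (0.258), Homer2 (0.265) and Dbp (0.343). Those nearest to Arntl were Sun2 (0.228), Slpi (0.282), 2010106E10Rik (0.302), Tnni1 (0.326) and Kcnj8 (0.337). Likeness over 4 pairs of samples is a description of these arrays only.

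Markers of cell types differed between the pairs. The medians of the 5 adipocyte markers measured were -0.34, -0.04, 1.26 and 2.82 for pairs 1, 2, 4 and 5, with a mean level per sample from 7.53 to 12.12 in knockout and from 7.78 to 9.33 in wild-type samples (log2 normalised intensity). Adipoq, a defining adipocyte gene, was not well above background in every channel, nor were Cd79a of B cells and Gfap of glia. Among lymphocyte genes, Gzma was lower in every pair, at -1.24, -1.54, -2.49 and -0.57, and passed the submitters' rule. The medians of the 6 smooth muscle markers were -1.03, -0.12, -0.39 and 0.32, of the 6 lymphocyte markers -0.09, -0.35, -0.09 and -0.05, and of the 5 neuronal and glial markers 0.06, 0.22, -0.18 and 0.02. The smooth muscle median was lowest in pair 1, where the activators, Cry1 and Nr1d1 were also lowest. Acta2 was at -2.01, 1.01, 0.86 and 0.48 and Actg2 at -1.54, 0.90, 0.56 and 0.24. Myh11 (-1.10) and Des (-0.93) were also lowest in pair 1. Tagln was instead highest there (0.18), and Cnn1 was lower in pair 4 (-1.76) than in pair 1 (-0.96). The epithelial medians were 0.22, 0.47, -0.37 and -0.24. They rest in part on the 4 markers saturated on all 4 arrays, Car1, Krt8, Krt20 and Vil1, each at 0.47 in pair 2. Among unsaturated markers, Cdx2 was at 0.10, 0.09, -0.80 and -0.02. Slc26a3 was at -0.71, 1.05, 1.07 and 0.13, with pair 1 below 0 and the others above, as for Per3, Cry1, Cry2 and Nr1d1. The part of these markers in those values was not tested. Per1, Per2 and Nr1d2 were higher in the knockout sample of every pair, and the adipocyte medians of the pairs ran from -0.34 to 2.82. Whether adipocyte content had a part in the ratios of these genes was not tested.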

How the data were processed

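RNA of scraped colonic mucosa was hybridised to 4 two-colour arrays, and group, pair and dye were taken from the labels. Spot intensity, as median signal, local background and processed signal of each channel, was read from the scans by Agilent Feature Extraction before deposit, per the file headers. These headers record version 10.5.1.1, whereas the submitters' processing notes name 8.5.1.1. Lists of changed transcripts deposited by the authors hold 1 linear ratio for every array and an average, with the normalisation not stated.

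Median signals were corrected with normexp (offset 50) and normalised by loess within arrays in R 4.3.3 with limma 3.58.1. Control and outlier spots were left out. Sample levels are channel values after Aquantile scaling. A probe was kept if, for either genotype, its spots were well above background on 2 or more arrays. limma was fitted to all 30677 kept probes with a dye term and Benjamini-Hochberg adjustment at 0.05, and tested on simulated data. Named were all members, other clock genes past the submitters' rule, up to 3 genes of each further list by size of mean ratio, and the 5 genes nearest to Per1 and to Arntl. Values of 2 genes of the list of other clock genes are not reported here, though its counts and median include them. Other genes named were chosen after their values were seen. Members and lists were chosen with earlier results of these data known. Probes were named by RefSeq accession only (25097 of 41174). The methylation arrays name no genes and were not used. Each array pairs 1 knockout with 1 wild-type sample by design, and the alternatives include a fit without that pairing. The number of arrays limits precision.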

Additional observations from a re-analysis of the deposited data

How the results depend on the processing

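In limma, 0 clock probes passed in either direction under any of the alternatives run for it. Of all probes in the fit, 1 was lower with Agilent's processed signals and 1 was lower without the dye term. With no replicate block 3 were higher and 2 lower, and 0 passed in the other alternatives. Without pair 1 the limma adjusted p was 0.0966 for Per1, Per2 and Cry2, 0.0975 for Nr1d2 and 0.101 for Per3. Without pair 2 it was 0.187 for Per1, Per2 and Nr1d2, 0.222 for Cry2 and 0.429 for Per3. For each of these probes it was 0.99996 without pair 4 and 0.999995 without pair 5, so it depended on the pair left out. With no replicate block, the 8 channel values were fitted without the pairing on an array. In that fit 0 clock probes passed, where 3 of all 30677 probes were higher and 2 lower. The limma adjusted p was then 0.373 for Per1 and 0.444 for Arntl. With 1 probe per named gene, an alternative chosen after seeing the data, the limma adjusted p was 0.519 and 0.597. The methylation comparison planned for these genes was not run, as its probes carry no gene name.

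By the submitters' rule, median centring in place of loess left 1 clock probe higher (Per1) and 0 lower, and the same 1 and 0 for direction on all arrays. Agilent's processed signals left 0 lower by both, since Arntl in pair 4 was then at 0.10, and moved the difference between repressors and activators to 1.47. The share of all probes passing under median centring or processed signals was not computed, so these counts have no background. Leaving out each pair gave 3 to 6 probes higher and 0 to 1 lower by the rule, 3 to 11 higher and 1 to 2 lower for direction, a difference between repressors and activators of 1.03 to 1.19, and 3 to 4 higher and 1 to 3 lower among the other clock genes. Without pair 1 the counts for direction on the 3 arrays left were 11 higher and 1 lower, where 24.5% of all probes were higher and 23.9% lower. By the rule, 2.66% of all probes were then higher and 3.22% lower, and 2.62% and 3.36% of all named genes. Such shares were not computed without pair 2, 4 or 5, so the counts of those fits have no background. Without pair 5 Arntl no longer passed the rule.

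Means near 0 changed sign in 20 of 214 probe values, over 10 of the 17 probes, and the cause was not tested. A fit without 1 array weights the lone array of its dye as much as the other 2 together. Over the fits without 1 pair, the brightest to dimmest probes of Clock ranged from -0.11 to 0.24, from -0.27 to 0.29 and from -0.016 to 0.091. Those of Nr1d1 ranged from -0.073 to 0.49, from -0.35 to 0.41 and from -0.10 to 0.0085, and those of Cry1 from -0.40 to 0.77 and from -0.20 to 0.35. The dim probe of Cry2 ranged from -0.013 to 0.16 and that of Per2 from -0.10 to 0.012. With median centring the reversed means were -0.042, -0.070 and -0.0028 for Clock and -0.051 for Nr1d1, and with processed signals -0.041 for Clock and 0.034 for Nr1d1. Over the alternatives run, the means of Arntl, Npas2, Per1, Per3, Nr1d2 and the bright probes of Per2 and Cry2 kept their sign, but Per3 ranged from 0.28 (without pair 2) to 1.29 (processed signals), Cry2 from 0.34 (without pair 2) to 0.83 (without pair 1), Npas2 from -0.79 (processed signals) to -0.17 (without pair 1) and Arntl from -1.39 (without pair 2) to -0.58 (without pair 1). The 5 probes read under 4 times background have little signal over background, and its part in their means was not tested.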
